A study of Mus musculus with 2 samples.

Results

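Of the 2020 summits listed for NAT10 in mouse hearts, 206 (10.2%, exact 95% interval 8.91 to 11.6%) lay outside every listed exon and untranslated region (UTR). A summit is the single base at which the signal of a peak is highest. Members were summits for which every line of the deposited table gave an intron, a last intron, no overlapped gene or the word Intergenic as the place of the summit base. No score or other measured value entered that choice. Introns held 116 of the 206, no listed gene held 88, and the remaining 2 carried the word Intergenic although they lay at an exon-intron boundary of Nrap and of Flnc. The other 1814 summits comprised 1055 in exons, 728 in 3′ UTRs and 31 in 5′ UTRs.

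The hearts came from wild-type mice that received AAV9-cTnT-FLAG-NAT10 under the skin on day 1 after birth, and they were taken 20 days after injection. The virus carries NAT10 with a FLAG tag behind the cTnT promoter, which drives expression in cardiomyocytes. From a lysate of about 60 mg heart, a portion of 10% served as Input and the remainder went onto anti-FLAG M2 beads (RIP), which were washed 4 times. Purified mRNA of each fraction was sequenced in pairs of 150 bases. There was 1 RIP library and 1 Input library, both from hearts carrying the virus, so no value had a replicate check and no p-value was computed. Whether animals were pooled is not stated. A pulldown from hearts without the tagged protein was not analysed here. The score of a summit is the authors' −log10 value from the peak caller, where the lost column header leaves p or q unknown. It was used only to rank and describe summits within the list, because it can be higher for a more abundant RNA as well as for a more enriched one. No counts were given, so the depth of both libraries is unknown.

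NAT10 is an acetyltransferase that places N4-acetylcytidine on ribosomal, transfer and messenger RNA, and it is found mainly in the nucleus and nucleolus. Introns are cut from the transcript in the nucleus, so poly(A)-selected RNA holds few of them unless an intron is retained, an alternative exon or alternative end lies within it, or unspliced RNA is carried along. In cardiomyocytes the splicing regulator RBM20 acts on introns and exons of sarcomere and calcium-handling genes such as Ttn and Ryr2.

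The reference tables held sequence at or near the 2 no-gene summits that lay nearest to a listed gene start. The first is the mature microRNA whose gene start lay 4 bases from a summit of score 15.5 at chr9:110281283-110281283. It runs from 110281353 to 110281371 on the plus strand of GRCm38, begins 70 bases from the summit, and is printed from RefSeq with its seed, bases 2 to 8, in capitals.
mmu-miR-6236: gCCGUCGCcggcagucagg
The second is a window of 30 bases around a summit of score 2.91 upstream of Tulp4, a gene of the tubby-like family. It spans chr17:6137987-6138016 on the plus strand, and the capital marks the summit base at 6138001, which was 147 bases upstream of the start the table gave for Tulp4.
Tulp4 upstream window: ctgcagcctagtctGtgtaagcaagaagta
The Tulp4 start used here is a transcript start in the RefSeq promoter table, while the RefSeq gene begins 31748 bases before the summit. The summit therefore lay in no gene by the table and inside Tulp4 by RefSeq.

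Intron summits had a lower median score than exon and UTR summits, and no-gene summits did not stand apart from them. The median score was 7.70 in introns (95% interval of the median 6.16 to 10.3), 14.3 in no gene (10.6 to 18.8) and 12.9 in exons and UTRs (11.6 to 13.8). Thus the interval for introns lay below that for exons and UTRs, and the interval for no gene overlapped it. These intervals treat summits as independent and cover counting error only. The difference between the intron and the exon and UTR median, −5.17, was −3.13 with Ttn left out and −4.23 with 1 summit per peak. Ttn alone carried 230 of the 1814 exon and UTR summits. Whether the 2 intervals still lay apart without Ttn was not computed. Of the intron summits, 18 of 116 (15.5%, 9.46 to 23.4%) were at or above 28.3, the upper quartile of all scores, which by construction 25.0% of all 2020 summits reached. Among no-gene summits 19 of 88 did (21.6%, 13.5 to 31.6%), a share whose interval included 25.0%, and among exon and UTR summits 468 of 1814 did (25.8%, 23.8 to 27.9%). Within the upper quartile itself the median intron summit exceeded the median exon or UTR summit by 13.6. The interval of the intron median ran from −12.2 to 43.3 relative to the exon or UTR median, which was held fixed. The intron difference also depended on the rule. Where any line in an intron was enough, including summits in an exon of another gene, 303 summits counted as intron summits. Their median was 9.13 above that of the remaining exon and UTR summits, while under the rule used here the difference was −5.17. The looser intron median had an interval of 3.18 to 14.2 above the other median, which was again held fixed. The highest score was 681 in introns, 196 in no gene and 4922 in exons and UTRs.

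**Figure D1:**
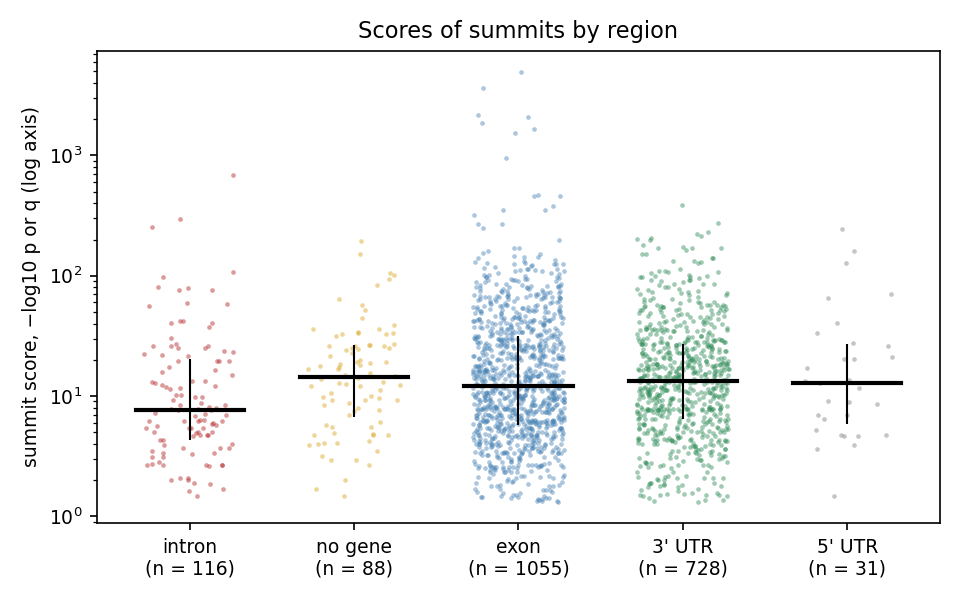
Scores of single summits (points, log axis, −log10 p or q) in introns, in no gene, in exons, in 3′ UTRs and in 5′ UTRs. Thick bars are medians and thin lines the quartiles. The intron median of 7.70 is the lowest, and 1 intron summit, at 681, stands above all other intron and no-gene summits.

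That summit, at chr16:11144118-11144118, lay in intron 19 of Zc3h7a, which encodes a zinc-finger protein annotated in the table with microRNA binding and microRNA production. Its score of 681 ranked 9 of 2020. It was the single summit listed for Zc3h7a, and the nearest exon or UTR summit of any gene was 2313563 bases away. By the RefSeq bounds of Zc3h7a it lay 32275 bases from the start of the gene and 7524 bases from its end. The start closest to it belonged to another gene, ENSMUSG00000076258 on the plus strand, which the table bounds at 11144125 and 11144181, so the summit was 7 bases upstream of a gene of 57 bases. That identifier has no symbol in the table and no entry in the GENCODE release used, and its kind is not stated here. Whether reads of this summit came from Zc3h7a or from the short gene cannot be told apart, since the table gives no read strand.

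The strongest intron summit outside Zc3h7a, Ttn and Myh6 was in Jarid2, a subunit of Polycomb repressive complexes with a known role in heart development. Its summit in intron 3, at chr13:44869692-44869692, scored 107 and ranked 84. The other 3 summits of Jarid2 lay in its last exon and scored 3.33, 1.51 and 5.07. The intron summit was 51149 bases from the nearest of them, so it was separate from the exon signal in place as well as in score. The closest start was that of a gene known by its identifier alone, ENSMUSG00000088189, at a distance of 31408 bases. Nedd4, a ubiquitin ligase, scored 40.7 in intron 11, against 16.4 for its exon or UTR summit. Prkch, a protein kinase C named after its value was seen, had a single summit, of score 40.7 in intron 13.

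The sarcomere genes Ttn, Myh6, Mybpc3 and Myom2 held 8 of the 15 strongest intron summits, and were named together after that ranking was seen. They also carried 230, 19, 5 and 11 of the 1814 exon and UTR summits, in that order. Their share of the strongest exon and UTR summits was not counted, so the 8 are not read as particular to introns. Ttn encodes titin, the giant spring of the sarcomere. Its 5 intron summits scored 297 in intron 276, 75.6 in intron 39, 41.8 in intron 16, 4.28 in intron 45 and 3.32 in intron 205, against at most 206 among the gene's 230 exon and UTR summits. The strongest of the 5, at chr2:76774734-76774734, lay also in intron 2 of the antisense long non-coding RNA Gm13938, and the 2 transcripts cannot be told apart without read strand. The 3 strongest were 978, 1124 and 939 bases from an exon or UTR summit. Myh6, the alpha myosin heavy chain of the adult mouse heart, had summits of 256 in intron 7, 24.9 in intron 9 and 56.2 in intron 11, against 1524 for the highest of its 19 exon summits. Both strong Myh6 intron summits lay about as close to an exon summit as those of Ttn, at 725 and 687 bases. Mybpc3, cardiac myosin binding protein C, scored 76.1 in intron 4 and 58.0 in intron 15. Its 5 exon and UTR summits scored 58.4, 15.7, 62.2, 3.94 and 169, the last in the 3′ UTR, so its intron summits lay within the range of its exon summits. Myom2, a protein of the sarcomere's M band, scored 59.2 in intron 22, against 233 in its 3′ UTR.

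Intron summits occurred in 78 host genes, 7.88% of the 990 genes that any summit overlapped. Of the hosts 69 were protein-coding, 8 were long non-coding RNAs and 1 was not in the GENCODE release. An exon or UTR summit was listed for 42 hosts and for none of the other 36. Counted by summit, 72 of 116 intron summits (62.1%, 52.6 to 70.9%) had a host with an exon or UTR summit, and the median score was 7.39 in these and 7.98 in the 44 whose host had none. The upper quartile of all scores held 14 of the 72 and 4 of the 44, against 18 of all 116 intron summits. In 13 of the 42 hosts with both kinds the strongest intron summit scored above the strongest exon or UTR summit, and in 29 it scored below. Ttn and Gm13938 are both among the 13 through the same intron summit, of score 297. Few intron summits shared a peak with an exon or UTR summit. Peak bounds are not in the table, so whether a peak itself reached an exon was not tested. Of the intron summits, 3 of 116 (2.59%, 0.537 to 7.37%) did, in Myh14, Dync1h1 and the non-coding Gm49172, and the median distance to the nearest exon or UTR summit was 22406 bases. Peaks of several summits held 17.2% of intron summits and 5.68% of no-gene summits, against 33.7% of exon and UTR summits.

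Hosts were long genes. The 69 coding hosts had a median length of 61601 bases, against 37779 for the 850 other coding genes with a summit, and a median of 43488 intron bases, against 30195. Over all 919 coding genes with a summit, 89.0% of bases lay outside exons annotated by GENCODE. Of all summits, in genes of every kind or none, 5.74% were in introns, or 15% where any line in an intron was enough. These shares differ in unit, gene set and exon annotation, so the first is not an expectation for the others. First introns held 24 intron summits, last introns 11 and other introns 81. Their median scores were 8.57, 7.88 and 7.19 with overlapping intervals. In the upper quartile were 1 of 24 first-intron summits, 1 of 11 last-intron summits and 16 of 81 in other introns. Of all intron summits 15.5% were in it, and of all summits 25.0%. The table appears to use 1 transcript model per gene, and exons of other transcripts of GRCm38 were not used here, so an intron summit can lie in an exon of another form of the gene.

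In 22 hosts 2 or more intron summits were listed, 61 summits in all, and in 6 of them the strongest intron summit scored above every exon or UTR summit of the gene. Kif1b, a kinesin motor for vesicles and mitochondria that is made in forms with different tails, had 4 summits within 4218 bases of a single intron, intron 22. They scored 81.4, 7.59, 5.01 and 11.7, against 8.43 for its 1 exon summit. Trdn encodes triadin, which ties the ryanodine receptor to calsequestrin and whose heart form is shorter than that of skeletal muscle. It scored 79.8 and 4.65 in intron 8 and 16.6 and 5.45 in intron 10, against 4.72 in an exon. The intron 10 pair lay also in intron 1 of the non-coding D830005E20Rik. Tpm1, alpha-tropomyosin, which is made with alternative last exons, scored 97.1 in its last intron and 9.83 in its first, against 17.9 for the higher of its 2 exon or UTR summits. Myocd, the coactivator of serum response factor, had 3 summits in intron 1, of 25.9, 8.40 and 3.34, against 6.95 in exon 10. Ttn, described above, was another.

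**Figure D2:**
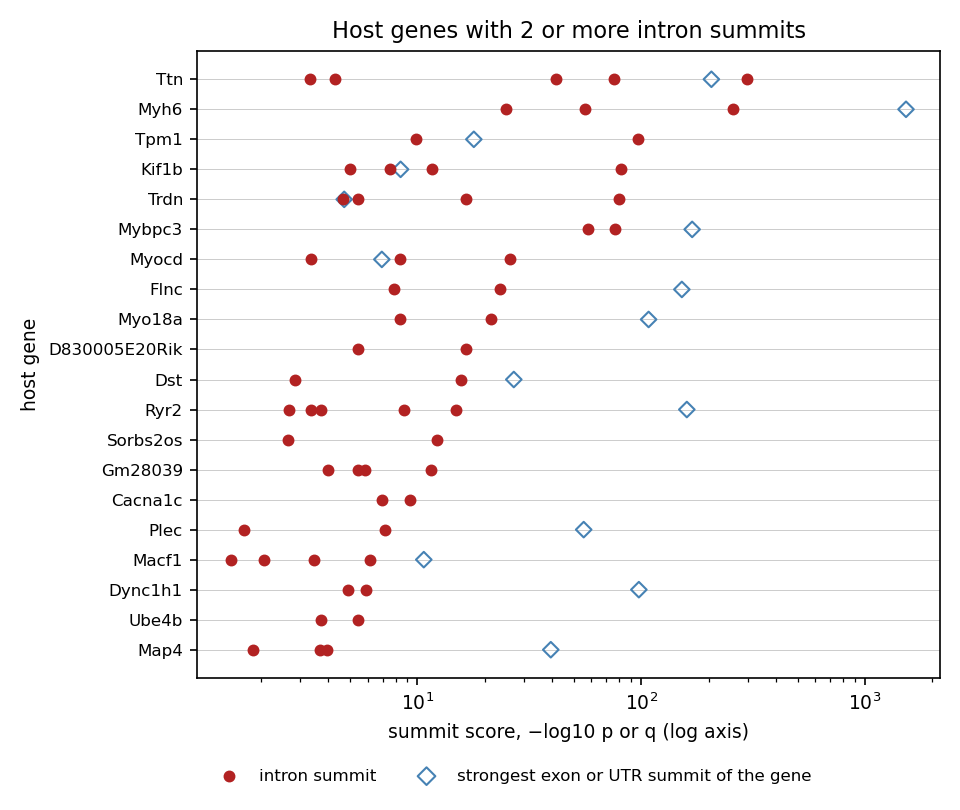
Scores of intron summits (filled points) and of the strongest exon or UTR summit (open diamonds) in 20 of the 22 genes with 2 or more intron summits, ordered by their strongest intron summit on a log axis of −log10 p or q. In Ttn, Tpm1, Kif1b, Trdn and Myocd an intron summit lies right of the diamond, and in Myh6 the diamond at 1524 lies right of all 3 intron summits.

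In other repeated hosts the intron summits were weak or the exons led. Ryr2, the calcium release channel, had 5 intron summits between 2.69 and 14.9, against 160 for the highest of its 53 exon and UTR summits. Macf1, a linker of actin and microtubules, had 4 between 1.48 and 6.16, against 10.7. Map4, a microtubule-associated protein, had 3 in intron 8, at 1.84, 3.95 and 3.69, against 39.5. The pairs with an exon summit were led by that summit in Flnc (23.3 and 7.87 in introns, against 152), Myo18a (21.4 and 8.41, against 108), Dst (15.7 and 2.85, against 27.0), Plec (7.19 and 1.68, against 55.4) and Dync1h1 (5.91 and 4.91, against 97.7). These genes encode a filamin, an unconventional myosin, 2 cytolinkers and the dynein heavy chain. The calcium channel gene Cacna1c had 9.25 and 6.97 in intron 3, and the ubiquitin factor Ube4b had 5.45 and 3.71 in intron 6, neither with an exon summit.

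Non-coding hosts alone gave 11 intron summits with a median score of 5.85, counting the host that is not in the GENCODE release, against 7.79 in the 105 with a coding host. The 3 summits shared with a coding host, 1 of Gm13938 in Ttn and 2 of D830005E20Rik in Trdn, are not among the 11. The strongest of the 11 was 37.6 in intron 1 of ENSMUSG00000097625. Sorbs2os, named as antisense to Sorbs2, had 12.2 and 2.66 in intron 1, both inside the RefSeq bounds of Sorbs2. Gm28039 had 4 in intron 1 within 1368 bases, at 5.85, 4.00, 11.5 and 5.47, all inside the RefSeq coding gene Zfp644. Gm47889 had 1 of 10.3 in its last intron, inside the RefSeq coding gene Mtres1 and 203 bases from its end. Without read strand the overlapping genes cannot be told apart.

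Lists of known heart genes were set against the hosts as plain counts. Of 22 targets of RBM20, 14 had any summit and 9 hosted an intron summit, among them Ttn, Ryr2, Cacna1c, Trdn, Tpm1, Dst, Nexn and Nrap. Nexn, an actin-binding Z-disc protein, scored 19.4 in intron 4 and had no exon summit. Of 30 cardiomyocyte genes 19 had a summit and 9 hosted one in an intron. Of all 990 genes with a summit 78 hosted an intron summit, so the counts to set beside it are 9 of 14 and 9 of 19. The share of all annotated genes with any summit was not counted. The numbers of list members with a summit are therefore not read as particular to a list. Both lists hold long genes with many summits of every kind, and Ttn, Ryr2 and Cacna1c are hosts in both. Of 38 markers of other heart cells 8 had a summit and 1 hosted an intron summit, the antigen-presentation gene Cd74, at 2.69. The 22 nuclear or regulatory long non-coding RNAs, Malat1, Neat1 and Xist among them, had no summit of any kind. How many of all long non-coding RNAs had a summit was not counted either. Rbm20 itself scored 21.7 in intron 1, against 7.20 for the highest of its 4 exon and UTR summits. It was named after its values were seen. Nat10, whose coding sequence the virus carries, scored 2.07 in its last intron, against 5.28 in exon 24 and 2.85 in exon 4.

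No-gene summits lay mostly inside or just past genes by another annotation. RefSeq gene bounds on GRCm38 enclosed 70 of 88 (79.5%, 69.6 to 87.4%), of which 66 were in protein-coding genes, 3 in long non-coding RNAs and 1 in another non-coding gene. In 29 of the 66 the table lists the same gene but with bounds that stop short of the summit, by a median of 1894 bases, and its gene length there was a median of 76.3% of that of RefSeq. Cardiac troponin T, Tnnt2, is 3330 bases long in the table and 15954 in RefSeq, and its summit of 35.9 lay 12420 bases past the table's bounds and 129 bases from the RefSeq end. The actin-binding profilin gene Pfn1 is 1997 bases long in the table and 4956 in RefSeq, and its summit of 94.1 lay 552 bases past those bounds and 216 bases from the RefSeq end. Rab14, a small GTPase of endosomal traffic, had a summit of 52.3 that lay 13681 bases past the table's bounds.

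**Figure D3:**
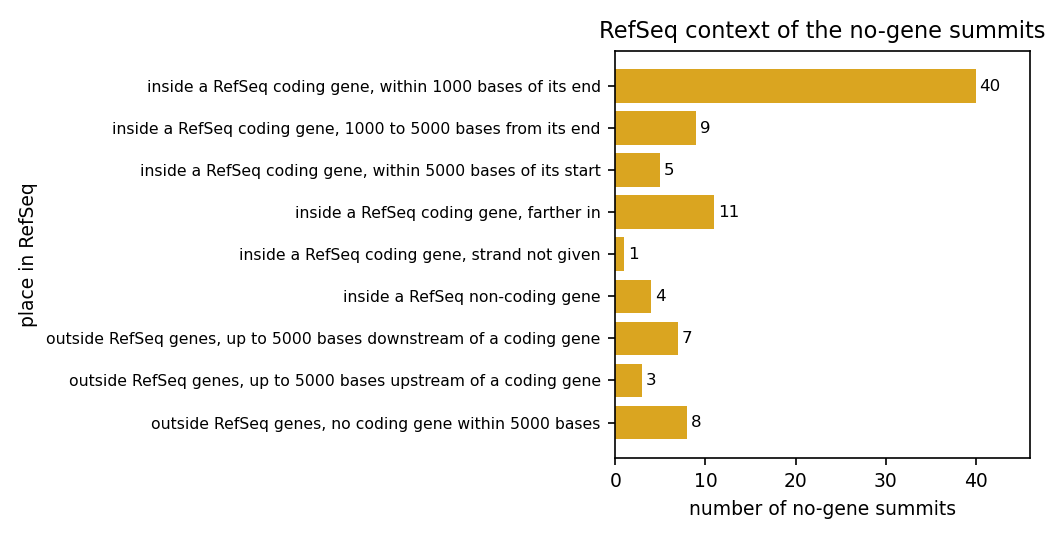
Number of the 88 no-gene summits by their place in RefSeq genes of GRCm38. The longest bar is the 40 summits inside a coding gene and within 1000 bases of its 3′ end, and the bar at the bottom of the plot is the 8 with no coding gene within 5000 bases.

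Many no-gene summits lay near RefSeq gene ends. By the rule of the classes, a no-gene summit lies outside the table's bounds of every gene. Intron and exon summits lie inside the table's bounds of their host. The contrast of no-gene with intron and exon summits is therefore partly set by that rule and is given as a description only. Of 65 no-gene summits in coding genes of known strand, 40 (61.5%, 48.6 to 73.3%) lay within 1000 bases of the gene's 3′ end, against 8 of 111 intron summits (7.21%, 3.16 to 13.7%), 78 of 1031 exon summits (7.57%, 6.03 to 9.35%) and 471 of 717 3′ UTR summits (65.7%, 62.1 to 69.2%). The median distance to that end was 399 bases for no-gene summits, 29467 for intron summits, 35148 for exon summits and 423 for 3′ UTR summits. On a scale where 0% is the gene's start and 100% its end, the medians were 98.2% for no gene, 58.4% for introns, 69.1% for exons and 98.5% for 3′ UTRs. At this limit the intervals of no-gene and 3′ UTR summits overlapped, and so did those of intron and exon summits. Within 5000 bases of the end the first pair separated, with 75.4% of no-gene summits (63.1 to 85.2%), against 93.0% of 3′ UTR summits (90.9 to 94.8%). Intron and exon summits still overlapped there, at 15.3% (9.18 to 23.4%) and 15.1%. The upper quartile of the distance to the end was 3385 bases for no-gene summits, against 1665 for 3′ UTR summits. The 40 had a median score of 19 and 9 of them were in the upper quartile. Among them were Acsl1, an acyl-CoA synthetase of fat oxidation (63.7, at 230 bases from the end), Slc25a3, the mitochondrial phosphate carrier (44.7, at 395), Dlst, a subunit of 2-oxoglutarate dehydrogenase (39.2, at 230), the proteasome subunit Psmd3 (36.0, at 245) and Trpc4ap (33.9, at 244). Trpc4ap's summit was also 214 bases downstream of Myh7b, and without read strand those 2 genes cannot be told apart. Zfp970 (33.4, at 172) is 1 of a cluster of closely related zinc-finger genes on chromosome 2, so its reads may be shared with relatives.

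**Figure D4:**
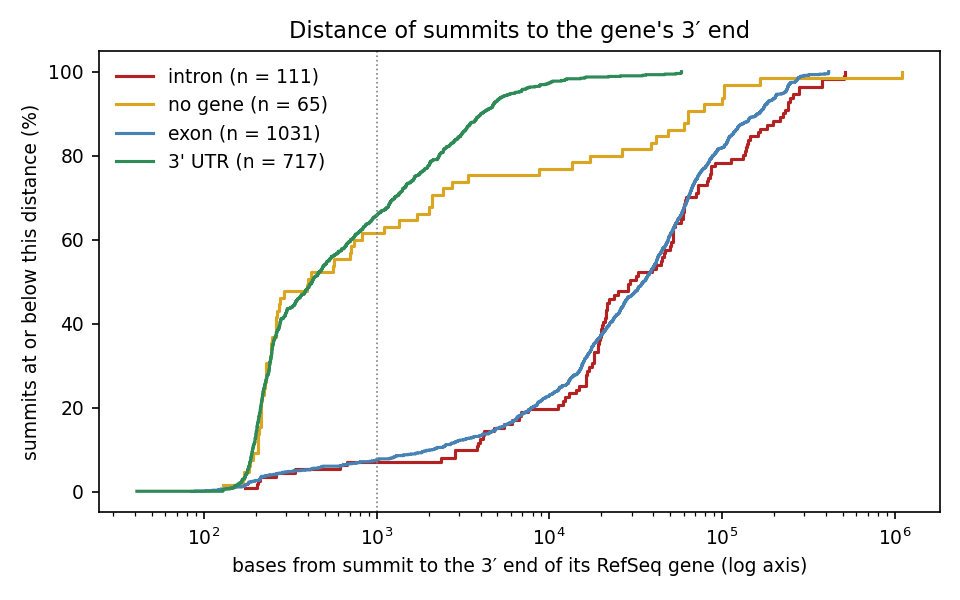
Cumulative share of summits (%) against the distance in bases from the summit to the 3′ end of its RefSeq coding gene, on a log axis, for intron, no-gene, exon and 3′ UTR summits. The no-gene curve follows the 3′ UTR curve up to about 1000 bases (dotted line), where it stands at 61.5% against 65.7%, and the intron curve follows the exon curve, at 7.21% against 7.57%.

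The other no-gene summits in RefSeq coding genes were fewer. A further 9 lay 1000 to 5000 bases from the end, among them Nrp1, a co-receptor for semaphorins and VEGF, at 102 and 2022 bases from its end, and Rab14 at 2094. Within 5000 bases of the start lay 5, led by Sec24d, a coat protein of secretory vesicles, at 84.1 and 1189 bases from the RefSeq start. There were 11 farther in, with a median score of 9.25, and 1 lay in an olfactory receptor gene whose strand the reference did not give. The strongest of all no-gene summits was among the 11. It scored 196, ranked 32, and lay at chr5:146261158-146261158 inside Cdk8, the kinase of the Mediator complex, 30363 bases from the start and 41716 from the end. Myl2, the ventricular myosin light chain, had a summit of 9.23 there, 1112 bases upstream of the start the table gives. Tpm1 had 1 of 17.9 near its RefSeq start, 5142 bases outside the table's bounds. For 15 of the 66 summits in RefSeq coding genes (22.7%, 13.3 to 34.7%) that gene also had a listed exon or UTR summit.

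Outside every RefSeq gene lay 18 of the 88. A coding gene ended up to 5000 bases before the summit for 7 (Zfp971, Txlnb, Scube2, Mxd4, Bnip3, Sap30l and Znrf2), with a median score of 18.5, and began up to 5000 bases after it for 3, of which 2 were upstream of the transcription factor gene Klf9, the weaker at 2.69. The remaining 8 had no coding gene that near. They include the second and the third strongest no-gene summits. The first of these scored 151 at chr3:5860656-5860656, 282060 bases from the nearest coding gene, Pex2. The second scored 106 at chr11:31549448-31549448, 115702 bases from Bod1. In RefSeq non-coding genes lay 4, led by 56.7 in Gm36876.

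The table's Distance gives the signed bases from the summit to the closest listed gene start, negative when the summit is upstream. Its median size was 13424 bases for intron summits, 11621 for no-gene summits and 12828 for exon and UTR summits. The summit was downstream of that start for 83 of 116 intron summits and 49 of 88 no-gene summits. The closest start was that of the host itself for 43 intron summits (37.1%, 28.3 to 46.5%), so Distance mostly names a gene other than the host. For 59 (50.9%) it belonged to a gene that GENCODE lists under a type other than protein-coding. Of these, 18 carried the type TEC, which names neither a coding nor a non-coding gene. The others were non-coding genes or pseudogenes. The nearest no-gene summits were Mir6236 at 4 bases, Tulp4 at 147 and Crybg3 at 223, with scores of 15.5, 2.91 and 7.47. The farthest were 190492 bases from Rps3a3, inside Pde4d by RefSeq, at 3.91, 130482 from Gm9204, inside Nrp1, at 102, and 122437 from Bod1, at 106.

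Few of these summits lay just outside a small RNA gene. A RefSeq small RNA gene that did not enclose the summit lay within 200 bases of 1 of 88 no-gene summits. That gene is Mir6236, inside the long non-coding RNA Gm39429. Such a gene lay that near 0 of 116 intron summits (exact upper bound 3.13%) and 1 of 1814 exon and UTR summits. Summits inside a small RNA gene were not counted, such as an exon summit of 124 in the RNase MRP RNA gene. The regions therefore cannot be compared by these counts. The short gene beside the Zc3h7a summit is not in that RefSeq set. Of the 15 structured non-coding RNA genes named in a list, the 7SK and RNase P RNAs among them, 2 had a summit of any kind. None hosted an intron summit, which says nothing of the RNAs, since a gene without introns cannot host one.

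The 2 boundary summits scored 24.0 in Nrap, a nebulin-related anchoring protein, at chr19:56380206-56380206, in 1 peak with the intron 8 summit of Nrap, and 7.38 in Flnc at chr6:29444199-29444199. Each host had stronger exon or UTR summits, of at most 215 in Nrap and 152 in Flnc.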

How the data were processed

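The RIP and the Input library of mouse hearts were compared by the authors. Reads were handled with fastp, BWA 0.7.12, MACS2 2.1.0 and HOMER, per the submitters' processing notes, which give no roles or order. The deposited table lists 2269 lines for 2020 summits in 1600 peaks. Its score is a −log10 p-value or q-value (which is not given) deposited by the authors; its Distance is a signed number of bases used as a score column, and its count of overlapped genes is as deposited by the authors. The notes name GRCm39, but of 1914 lines matched by symbol to RefSeq GRCm38.p6 98.9% lay inside their gene, against 28.1% of 2140 matched by identifier to GENCODE M39 on GRCm39. Positions are therefore given as GRCm38, and GENCODE gave names, types and lengths only. RefSeq gave gene bounds and sequences.

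Each summit was counted once (Python 3.11.15, pandas 2.3.3, scipy 1.17.1). Shares have exact Clopper-Pearson 95% intervals and medians order-statistic 95% intervals, checked on simulated data. No test was made, since each group had 1 library. Members, lists and named genes (Zc3h7a, Ttn, Nat10, the 15 strongest of each kind, hosts of 2 or more intron summits, the 3 nearest and 3 farthest no-gene summits, the strongest non-coding hosts and list members) were chosen with earlier results of these data known. Further names are members of counted groups, and a few genes under the rule are not reported here. Alternatives were a score minimum, 1 summit per peak, merging within 200 bases, leaving out Ttn or the mitochondrial chromosome, a looser intron rule and RefSeq bounds.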

Additional observations from a re-analysis of the deposited data

How the results depend on the processing

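Of 64 alternative values 47 stayed within the interval of the reported value. Some of these had little or no room to move. No intron or no-gene summit lay on the mitochondrial chromosome, and merging within 200 bases removed none of them. The looser intron rule cannot change the share in no gene. The 5.74% of summits in introns became 4.06% among scores at or above the median, 3.56% at or above the upper quartile and 15% when any line in an intron was enough. The 4.36% in no gene became 5.38% with 1 summit per peak and 1.39% with RefSeq bounds. The score difference of −5.17 between intron and exon or UTR medians was −3.13 with Ttn left out and −4.23 with 1 summit per peak. It changed sign to 13.6 in the upper quartile and to 9.13 under the looser intron rule. The score difference of 1.42 for no gene changed sign to −3.09 above the median, −9.12 in the upper quartile and −2.77 with RefSeq bounds. Intervals of these differences covered the intron or no-gene median only, with the exon and UTR median held fixed. The share of intron summits in a peak with an exon or UTR summit was 0 above the median, in the upper quartile and with 1 summit per peak, the last by construction. The share whose host had an exon or UTR summit was 46.3% above the median and 44.4% in the upper quartile. Exon and UTR summits below the minimum were dropped there too, so fewer are left to count. With all exon and UTR summits kept, 14 of the 18 intron summits in the upper quartile had such a host. The median Distance of intron summits was 10535 bases above the median score. The share of no-gene summits near a RefSeq end, tried after seeing the data, was 74.4% above the median score, and 52.3% and 66.2% with limits of 500 and 2000 bases. The cause of the other shifts was not tested. No paired analysis was possible because each group held 1 library and no test was made. The depth of the libraries, replicate spread, antibody background and read strand are unknown, and exons of other transcripts were not used.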
